A study of Mus musculus with 20 samples.

Results

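The conjugation enzymes described here are the glutathione S-transferases of the alpha, kappa, mu, omega, pi, theta and zeta classes, the UDP-glucuronosyltransferases of the Ugt1, Ugt2 and Ugt3 families, and the Sult1 and Sult2 sulfotransferases. They were found by the gene name printed beside each probe in the array files. The rule took 50 of 41174 probes, which stand for 40 of 27573 named genes: 19 Gst genes, 14 Ugt genes and 7 Sult genes. Of these, 39 passed the filter on dim probes, beside 17552 genes of the whole array. The probe standing for each of the 39 was well above background on all 20 arrays. Sult2b1, the cholesterol sulfotransferase, did not pass. Its probe was above background on 1 array of knockout mice on Western diet and 1 array of wild-type mice on normal diet. A further probe of Gsto2 and a further one of Ugt2a1 did not pass either.

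The livers came from male mice aged 28 weeks on a mixed Sv129 and C57Bl6J background, with 5 mice in each of 4 groups and 1 array per mouse. The groups were LXR alpha/beta double knockout mice on Western diet, the same knockout on normal diet, wild-type mice on Western diet and wild-type mice on normal diet. The Western diet, fed for 7 weeks, combined a cocoa butter diet (TD.88051) with Purina chow, and the normal diet was a Teklad Global chow. The labels name no Cre driver or tissue restriction for the knockout, and RNA was taken from a fragment of the large liver lobe, so each value is an average over every cell type in it. In such bulk tissue, fewer cells of a type and less RNA per cell cannot be told apart.

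Phase II enzymes attach a polar group to bilirubin, steroids, bile acids, lipid peroxidation products and foreign compounds, which makes them easier to excrete in bile or urine. Ugt enzymes sit in the endoplasmic reticulum and transfer glucuronic acid from UDP-glucuronic acid, Sult enzymes are cytosolic and transfer sulfate from PAPS, and most Gst enzymes are cytosolic and couple glutathione to electrophiles. Many of these genes are known targets of the xenobiotic receptors CAR, PXR and AhR and of the oxidative stress factor NRF2. The receptors removed here, LXR alpha and LXR beta, bind oxysterols and control cholesterol efflux, bile acid and fatty acid synthesis genes.

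A level below is the log2 of a probe's processed signal minus the log2 of the 75th percentile of its array. A difference is the mean level of the first group minus that of the second, with its standard error from limma over 5 mice a group. A gene is said to have risen or fallen where the Benjamini-Hochberg adjusted p over all genes tested was under 0.05. Levels of different probes are not on a common scale and were not compared. The 75th percentile lay between 170.3 and 435.1 units, and 53.6% to 67.12% of probes were well above background. Nr1h3 and Nr1h2, which encode the receptors, differed between knockout and wild-type livers by -9.0 and -5.43 on Western diet and by -9.05 and -5.39 on normal diet.

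On Western diet the glucuronosyltransferases fell as a family in the knockout: 14 of 14 tested Ugt genes were lower than in wild-type mice, with a median difference of -2.22. For 13 of them every knockout mouse with a value lay below every wild-type mouse, a separation that was not counted over all genes. Ugt2a1, among the 13, lacked the value of a knockout mouse there. Of the 19 Gst genes, 12 were called lower and 2 higher, and their median difference was -0.49. Gstm1, Gstm3 and Gstp1 are among the 12, from probes saturated on every Western diet array. With normexp background correction 3 of the 19 Gst genes fell (Gstm4, Gstm7 and Gstt1) and 2 rose, with a median of -0.26. That correction called 4302 of all 17545 genes tested, 1971 of them higher. Among the 15 Gst genes whose probe was never saturated, 8 were lower and 2 higher without that correction. Of the 6 tested Sult1 genes, 3 were lower and 2 higher, and the median was -0.30. Among the 39 genes 33 were called, 4 higher and 29 lower, and their median difference was -0.86. Over all genes tested 57.7% were called, 25% higher and 32.7% lower, with a median of -0.16. The direction held in every slide that carried both genotypes on Western diet for 31 of the 33 called genes, and 32 genes were called with slide as a block.

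On normal diet the same genotype comparison gave another picture. There 7 of 39 genes were called, 6 higher and 1 lower, against 19.7% of all genes tested, 11.3% higher and 8.39% lower. The genes higher in the knockout were Gsta1, Gsta2, Gsta4, Gstt2, Sult1b1 and Sult1e1, and the gene lower was Ugt2b1. The medians were -0.02 for the 14 Ugt genes, 0.10 for the 19 Gst genes and 0.34 for the 6 Sult1 genes, against -0.06 over all genes. On normal diet 4 of the 39 genes were higher, and 1 lower, in every knockout mouse than in every wild-type mouse. That separation was not counted over all genes here either.

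**Figure D1:**
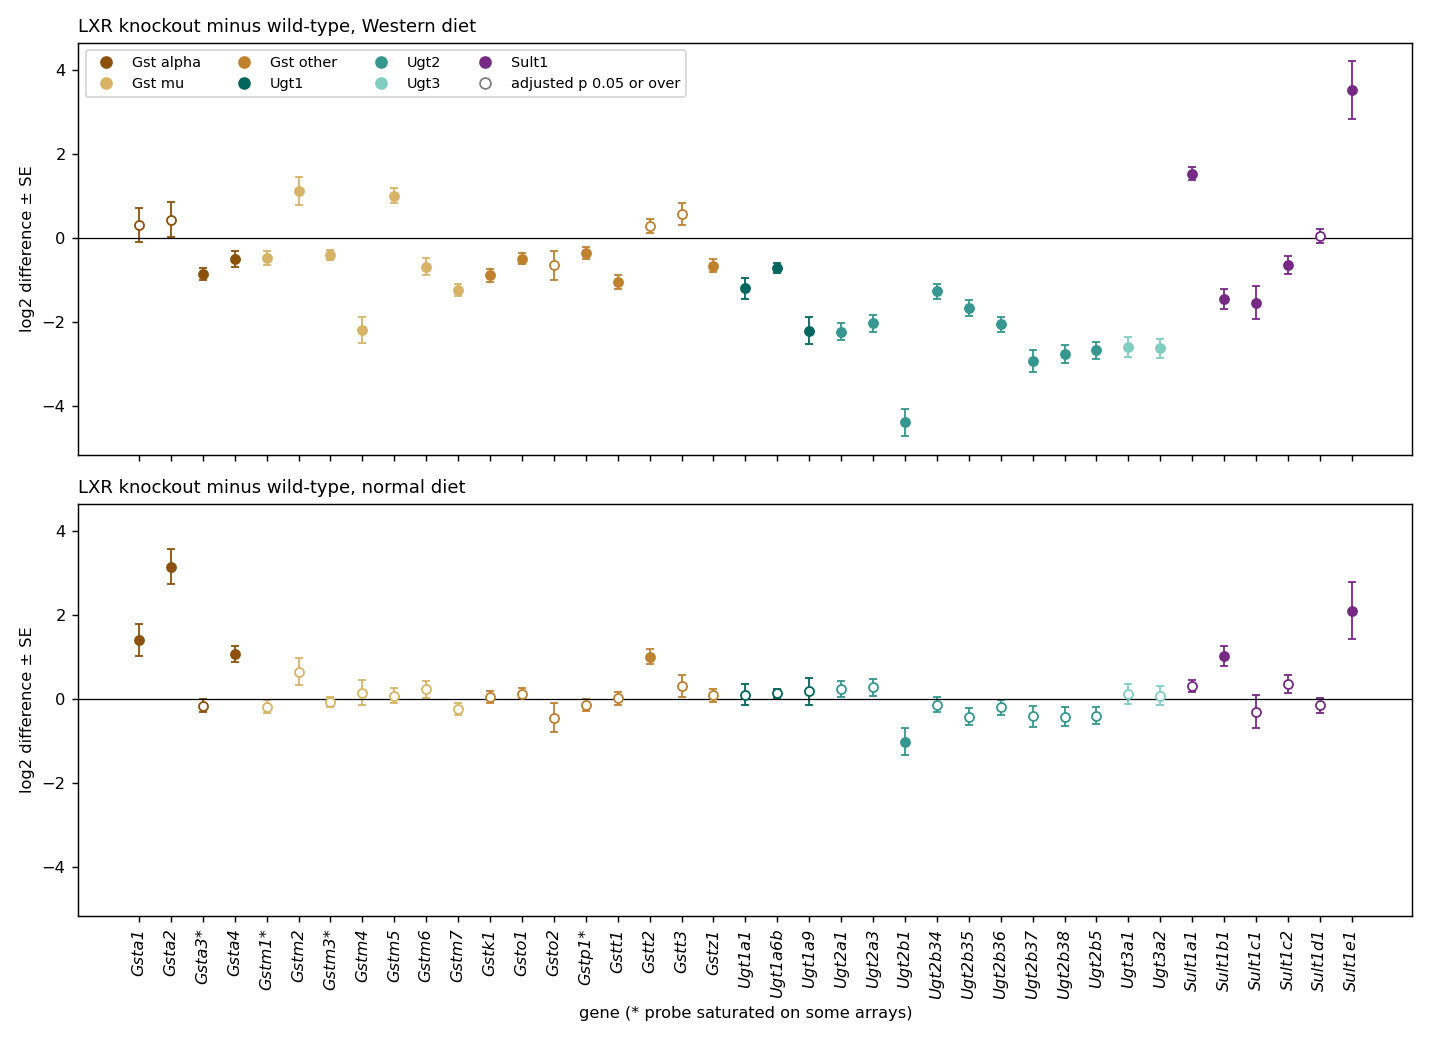
Genotype difference in log2 units (knockout minus wild type) of each of the 39 tested genes on Western diet and on normal diet, with bars for the standard error over 5 mice a group, filled points for an adjusted p under 0.05 and an asterisk for genes whose probe was saturated on some arrays. The 14 Ugt genes lie between -4.40 and -0.71 on Western diet, while on normal diet only Ugt2b1 among them has a filled point.

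The diet comparisons differed between the genotypes. In knockout mice, 29 of 39 genes were called between Western and normal diet, 2 higher and 27 lower, with a median of -1.13; over all genes 50.4% were called, 22.6% higher and 27.8% lower, with a median of -0.12. In wild-type mice, 7 of 39 were called, 4 higher and 3 lower, with a median of -0.12, against 5.97% of all genes, 3.25% higher and 2.71% lower, and a median of -0.03. The difference itself was tested as an interaction, the diet difference in the knockout minus that in wild type, and was called for 29 of 39 genes, 2 higher and 27 lower, against 27.6% of all genes, 12.9% higher and 14.7% lower. The knockout group on Western diet enters 3 of these 5 comparisons, so the counts are not separate evidence.

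Cell type markers also differed between the genotypes, on both diets. On Western diet, 11 of 12 tested hepatocyte markers fell in the knockout, with a median of -0.58, and the mean level of that list ran from 5.80 to 6.16 in knockout mice, against 6.61 to 6.95 in wild-type mice. Of 15 macrophage markers, 11 were higher and 2 lower in the knockout (median 2.38), and the list's mean level ran from 1.86 to 2.36 in knockout mice, against -1.32 to 0.12 in wild-type mice. Stellate cell and fibroblast markers rose for 7 of 9 genes, cholangiocyte markers for 6 of 7 and neutrophil markers for 3 of 4. Of 8 endothelial markers 2 rose and 1 fell, of 8 T and B cell markers 2 rose and 2 fell, and of 7 periportal hepatocyte markers none rose and 5 fell by limma. Their part in the values of the conjugation genes was not tested.

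On normal diet 0 of 12 hepatocyte markers rose and 2 fell in the knockout, with mean levels of 6.74 to 7.17 in knockout mice, against 6.97 to 7.43 in wild-type mice. There 6 of 15 macrophage markers rose and 1 fell. None fell in the other lists, where 4 of 8 T and B cell, 2 of 7 cholangiocyte, 2 of 8 endothelial, 1 of 9 stellate cell and fibroblast and 0 of 4 neutrophil markers rose. The T and B cell list's mean level ran from -3.01 to -2.64 in knockout mice, against -4.42 to -3.50 in wild-type mice. Markers of hepatocytes around the central vein, where several conjugation enzymes are known to be highest, were counted as a list of their own. Between genotypes on Western diet 4 of 8 of them fell and none rose by limma, with a median of -1.02, beside -2.22 for the 14 Ugt genes. Between diets in the knockout 7 of 8 fell, with a median of -3.24, beside -2.28 for the Ugt genes, and between diets in wild type 6 of 8 fell, with a median of -1.41, beside 0.01.

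The Ugt2 genes lie side by side on chromosome 5, and 4 of them, Ugt2b5, Ugt2b36, Ugt2b37 and Ugt2b38, are near copies. The probe for Ugt2b36 also lists the Ugt2b37 transcript and the probe for Ugt2b38 also lists those of Ugt2b37 and Ugt2b5, so these probes may share signal. Their promoters are shown because all 4 hold a common stretch near the start. Likeness outside that stretch was not measured. The RefSeq windows (build GRCm38.p6) run 5′ to 3′ over the 250 bases before each gene's start, read on the gene's own strand, and the capitals mark the longest stretch that all 4 windows share.
Ugt2b5, chr5:87140341-87140590, minus strand: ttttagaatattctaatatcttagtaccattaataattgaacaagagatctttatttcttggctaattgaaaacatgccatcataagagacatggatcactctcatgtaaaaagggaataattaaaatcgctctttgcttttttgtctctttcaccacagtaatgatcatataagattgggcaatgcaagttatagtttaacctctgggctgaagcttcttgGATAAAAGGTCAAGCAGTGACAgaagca
Ugt2b36, chr5:87092556-87092805, minus strand: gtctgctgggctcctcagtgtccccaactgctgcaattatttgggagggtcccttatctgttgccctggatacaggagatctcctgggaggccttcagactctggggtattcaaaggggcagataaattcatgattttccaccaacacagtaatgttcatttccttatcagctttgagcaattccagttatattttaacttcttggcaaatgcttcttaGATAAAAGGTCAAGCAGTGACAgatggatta
Ugt2b37, chr5:87254789-87255038, minus strand: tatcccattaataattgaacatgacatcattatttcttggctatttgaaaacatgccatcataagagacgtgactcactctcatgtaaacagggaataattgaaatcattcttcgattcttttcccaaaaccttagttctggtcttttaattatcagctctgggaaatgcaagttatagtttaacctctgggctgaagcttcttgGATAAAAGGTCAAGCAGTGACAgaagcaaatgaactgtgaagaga
Ugt2b38, chr5:87424204-87424453, minus strand: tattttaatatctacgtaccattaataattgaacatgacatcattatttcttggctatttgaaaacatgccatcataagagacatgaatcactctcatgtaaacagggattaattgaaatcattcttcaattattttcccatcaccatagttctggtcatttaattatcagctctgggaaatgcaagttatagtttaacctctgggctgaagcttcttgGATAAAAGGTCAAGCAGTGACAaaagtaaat
The shared stretch is 22 bases long and was found in the windows of 4 of 27025 genes, which are these 4. Counted from the start, it runs from -28 to -7 in Ugt2b5, from -31 to -10 in Ugt2b36 and Ugt2b38, and from -45 to -24 in Ugt2b37.

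Ugt2b1, whose rat counterpart glucuronidates morphine and bisphenol A, showed the largest genotype difference of the 39 genes on Western diet. On Western diet, Ugt2b1 was at 0.52, -0.74, -1.32, 1.04 and -0.71 in knockout mice, against 4.17, 4.47, 4.05, 3.97 and 4.13 in wild-type mice. On normal diet, Ugt2b1 was at 3.0, 3.43, 3.60, 3.84 and 3.47 in knockout mice, against 4.47, 4.44, 4.41, 4.89 and 4.23 in wild-type mice. All knockout mice on Western diet lay well below the other 15 mice. The genotype difference on Western diet was -4.40 ± 0.32 (adjusted p = 3.69e-09), a 21.1-fold fall. On normal diet the knockout mice also lay below the wild-type mice with no overlap, and the difference was -1.02 ± 0.32 (adjusted p = 0.0329). That smaller call was lost when any of 4 knockout mice (1, 2, 3 or 5) or any of 4 wild-type mice (1 to 4) on normal diet was left out, with quantile normalization and with no filter. The diet difference was -3.71 ± 0.32 in the knockout (adjusted p = 5.14e-08) and -0.33 ± 0.32 in wild type (adjusted p = 0.614).

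Ugt2b37 and Ugt2b38 had the next largest differences of the Ugt2 family. On Western diet, Ugt2b37 was at 2.51, 2.20, 1.88, 3.35 and 1.58 in knockout mice, against 4.99, 5.38, 5.48, 4.98 and 5.33 in wild-type mice. On normal diet, Ugt2b37 was at 4.65, 5.06, 4.71, 4.68 and 4.06 in knockout mice, against 4.95, 5.14, 5.33, 5.13 and 4.69 in wild-type mice. The 2 genotypes did not overlap on Western diet and overlapped on normal diet. The difference was -2.93 ± 0.26 on Western diet (adjusted p = 2.74e-08), a 7.61-fold fall, and -0.41 ± 0.26 on normal diet (adjusted p = 0.282). On Western diet, Ugt2b38 was at 4.07, 3.50, 3.40, 4.92 and 3.72 in knockout mice, against 6.50, 6.68, 6.75, 6.70 and 6.77 in wild-type mice. On normal diet, Ugt2b38 was at 5.98, 6.37, 6.02, 6.24 and 6.10 in knockout mice, against 6.41, 6.55, 6.73, 6.93 and 6.17 in wild-type mice. Knockout mouse 4 was the highest of its group for both genes, and still lay below each wild-type mouse. For Ugt2b38 the difference was -2.76 ± 0.22 on Western diet (adjusted p = 8.20e-09) and -0.42 ± 0.22 on normal diet (adjusted p = 0.197).

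The other 6 Ugt2 genes fell on Western diet too, Ugt2b5 at -2.68 ± 0.21 (adjusted p = 6.34e-09), Ugt2a1, an enzyme first known from olfactory epithelium, at -2.23 ± 0.21 (adjusted p = 8.47e-08), Ugt2b36 at -2.06 ± 0.18, Ugt2a3 at -2.04 ± 0.21, Ugt2b35 at -1.67 ± 0.19 and Ugt2b34 at -1.27 ± 0.18. On normal diet none of these 6 was called by limma, and their differences lay between -0.42 and 0.28. A second Ugt2a1 probe gave -2.44 ± 0.24 on Western diet in a fit of all probes. The third Ugt2a1 probe was above background on 1 array of wild-type mice on Western diet and was not tested, so the probes of this gene differed in detection. All 9 Ugt2 genes fell with Western diet in the knockout, from -3.71 for Ugt2b1 to -0.71 for Ugt2b35, and the interaction was called for all 9.

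The Ugt1 enzymes are read from a single locus with alternative first exons and a shared end. Ugt1a9, which in humans conjugates bulky phenols, gave the largest difference among the probes that stand for a Ugt1 gene. On Western diet, Ugt1a9 was at 1.12, -0.42, -0.51, 1.53 and 0.27 in knockout mice, against 2.74, 2.92, 2.51, 2.08 and 2.77 in wild-type mice. On normal diet, Ugt1a9 was at 2.87, 2.82, 2.51, 3.25 and 2.82 in knockout mice, against 2.35, 2.17, 3.0, 2.95 and 2.87 in wild-type mice. On Western diet every knockout mouse lay below every wild-type mouse, and on normal diet the genotypes overlapped. The difference was -2.21 ± 0.32 on Western diet (adjusted p = 1.27e-05), a 4.61-fold fall, and 0.19 ± 0.32 on normal diet (adjusted p = 0.725). On Western diet, Ugt1a1 was at 0.19, 0.25, 0.73, 1.47 and 0.80 in knockout mice, against 1.78, 2.33, 1.99, 1.35 and 1.96 in wild-type mice. On normal diet, Ugt1a1 was at 1.24, 2.26, 1.51, 2.26 and 2.29 in knockout mice, against 1.53, 2.05, 1.78, 1.72 and 1.95 in wild-type mice. Ugt1a1, the bilirubin-conjugating enzyme, was the single Ugt gene whose genotypes overlapped on Western diet, and its difference there was -1.20 ± 0.25 (adjusted p = 0.000518).

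Ugt1a6b, an enzyme of small phenols, was measured by 2 probes that differed in size of response. The brighter probe lists 4 Ugt1a transcripts and stands for the gene. On Western diet, Ugt1a6b was at 6.49, 6.56, 6.53, 6.93 and 6.52 in knockout mice, against 7.30, 7.52, 7.18, 7.36 and 7.24 in wild-type mice. On normal diet, Ugt1a6b was at 7.41, 7.65, 7.49, 7.64 and 7.58 in knockout mice, against 7.19, 7.26, 7.50, 7.68 and 7.45 in wild-type mice. The knockout lay below wild type without overlap on Western diet, and the difference was -0.71 ± 0.11 (adjusted p = 2.22e-05). The second probe lists a single RefSeq transcript. Second probes were tested in a fit of all probes, which called 58.8% of them for genotype on Western diet, 18.5% on normal diet, 50.9% for diet in the knockout and 5.11% for diet in wild type. The difference of the second Ugt1a6b probe on Western diet was -3.08 ± 0.25 (adjusted p = 1.29e-08), against -0.71 ± 0.11 for the first. In knockout mice the diet difference was -2.62 ± 0.25 by the second probe, against -0.95 ± 0.11 by the first, and in wild-type mice it was -0.19 ± 0.25 by the second and -0.09 ± 0.11 by the first.

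Ugt3a1 and Ugt3a2, whose human counterparts use sugars other than glucuronic acid, moved nearly alike. On Western diet, Ugt3a1 was at 1.75, 0.50, 0.62, 1.96 and 0.89 in knockout mice, against 3.47, 3.40, 3.79, 4.05 and 3.95 in wild-type mice. On normal diet, Ugt3a1 was at 4.44, 4.52, 4.33, 4.30 and 4.52 in knockout mice, against 4.23, 4.34, 3.90, 4.60 and 4.38 in wild-type mice. Knockout mice on Western diet were the lowest, with no overlap with any other group. The genotype difference was -2.59 ± 0.24 on Western diet (adjusted p = 4.92e-08) and 0.13 ± 0.24 on normal diet (adjusted p = 0.739). On Western diet, Ugt3a2 was at 2.67, 1.55, 1.54, 3.0 and 1.76 in knockout mice, against 4.42, 4.48, 4.87, 4.93 and 4.97 in wild-type mice. On normal diet, Ugt3a2 was at 5.31, 5.43, 5.23, 5.40 and 5.41 in knockout mice, against 5.22, 5.31, 5.02, 5.45 and 5.37 in wild-type mice. For Ugt3a2 the difference was -2.63 ± 0.23 on Western diet (adjusted p = 2.90e-08), and the diet difference was -3.25 ± 0.23 in the knockout (adjusted p = 4.68e-09) and -0.54 ± 0.23 in wild type (adjusted p = 0.2).

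Across the 14 Ugt genes, the diet difference in wild-type mice had a median of 0.01, ran from -0.56 to 0.54 and was called by limma for none, with 3 at an unadjusted p under 0.05. With the authors' deposited normalized values in place of the scanner signal, 1 was called. The interaction was called for all 14, with a median of -2.33. In the knockout on Western diet, mouse 4 was the highest of its group for 13 of the 14 genes, a rank that was not counted over all genes. Its mean level over the family was 3.23, and the other mice lay between 2.04 and 2.69. The hepatocyte marker mean was 6.16 in that mouse and between 5.80 and 6.11 in the others.

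**Figure D2:**
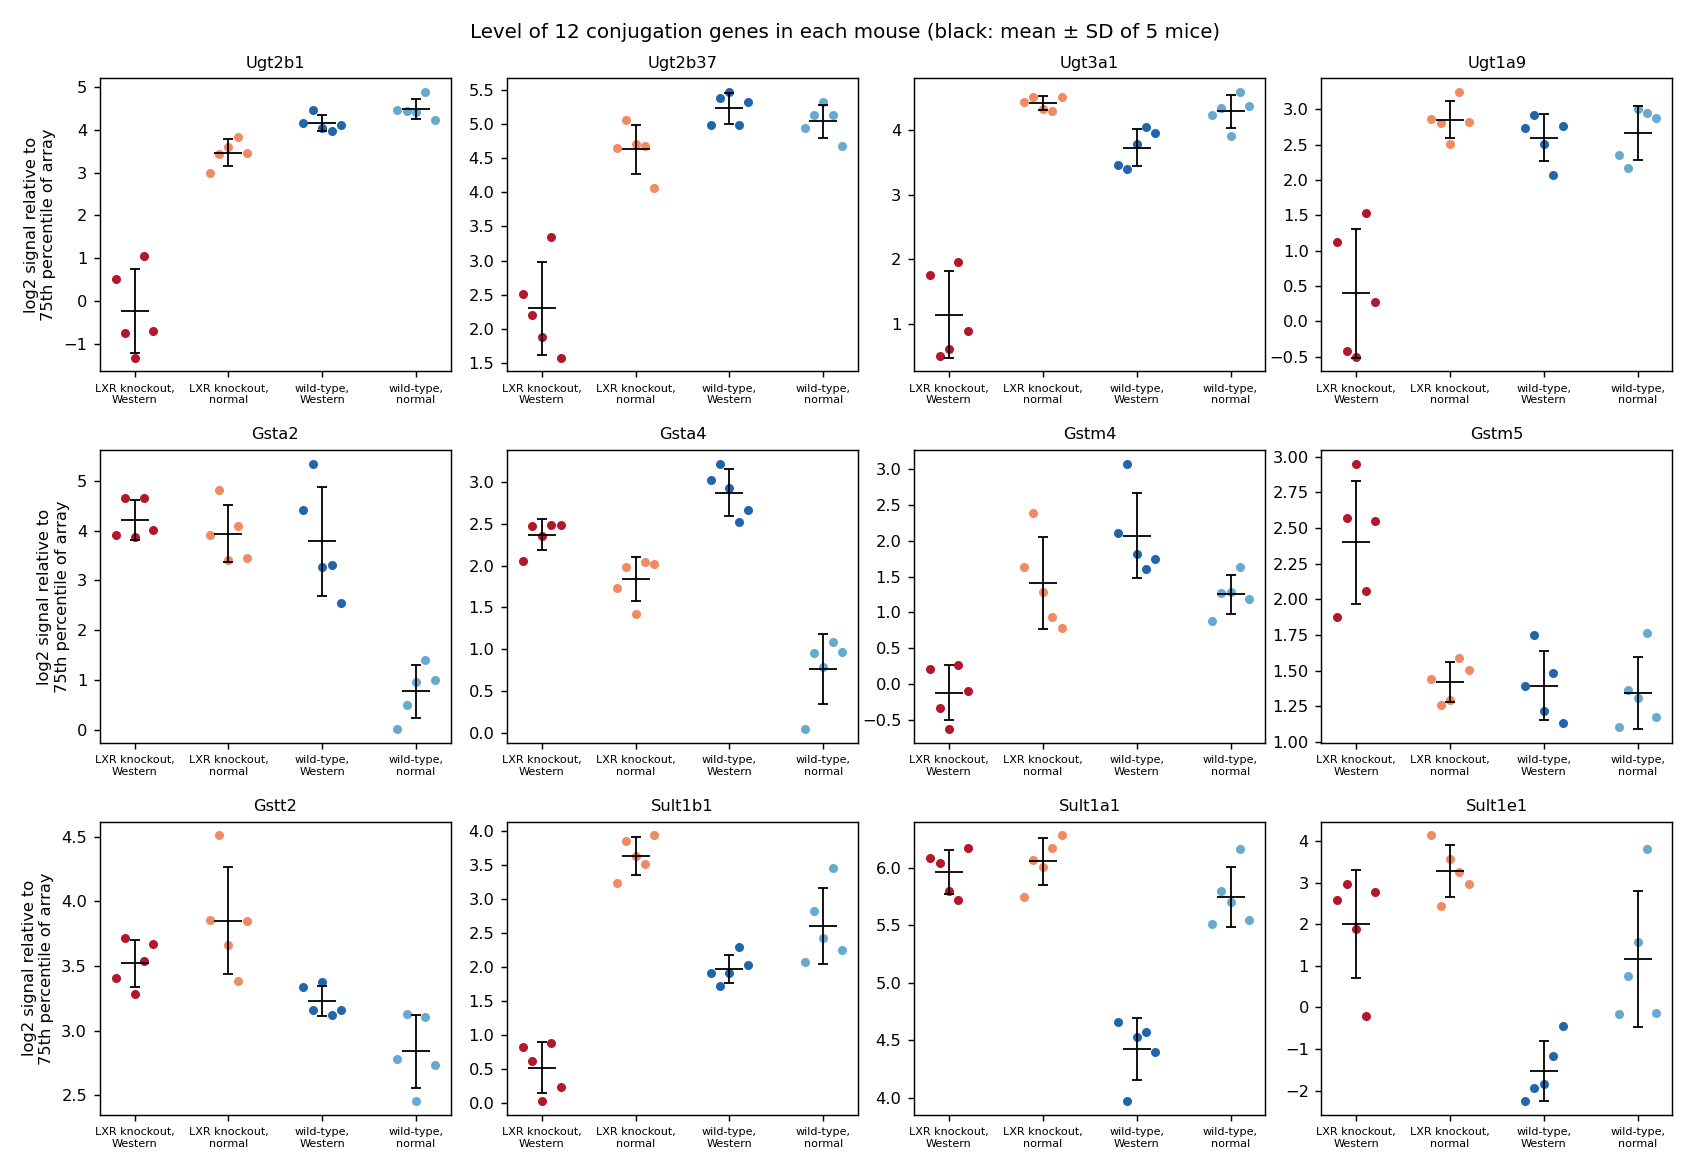
Level of 12 genes in each of the 20 mice (log2 signal relative to the 75th percentile of the array), with the groups from left to right knockout on Western diet, knockout on normal diet, wild type on Western diet and wild type on normal diet, and a bar for the mean with its SD over 5 mice. Ugt2b1, Ugt2b37, Ugt3a1 and Ugt1a9 have their lowest mean in the first group, Ugt2b1 being also lower in the second than in either wild-type group, whereas Gsta2 has its lowest mean in the last group.

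The alpha class Gst enzymes reduce lipid hydroperoxides and conjugate their breakdown products. Gsta1 and Gsta2 are close copies on chromosome 9, and the probe of each also lists the transcript of the other, so their values cannot be fully separated. Their promoters are shown for the same reason, as RefSeq windows (GRCm38.p6, 250 bases before the start, on the gene's strand), with the longest shared stretch in capitals.
Gsta1, chr9:78230419-78230668, plus strand: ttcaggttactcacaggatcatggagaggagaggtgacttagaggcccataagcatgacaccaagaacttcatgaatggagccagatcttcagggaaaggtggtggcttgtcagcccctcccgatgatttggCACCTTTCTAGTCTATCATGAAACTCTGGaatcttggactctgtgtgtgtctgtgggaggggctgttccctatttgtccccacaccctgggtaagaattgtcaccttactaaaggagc
Gsta2, chr9:78347146-78347395, minus strand: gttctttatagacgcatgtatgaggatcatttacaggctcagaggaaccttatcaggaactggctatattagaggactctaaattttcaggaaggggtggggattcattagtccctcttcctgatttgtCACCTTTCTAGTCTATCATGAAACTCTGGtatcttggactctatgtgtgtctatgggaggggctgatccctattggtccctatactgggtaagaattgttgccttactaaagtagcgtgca
The stretch of 29 bases runs from -118 to -90, counted from the start, in Gsta1 and from -121 to -93 in Gsta2. It was found in the windows of 3 of 27025 genes, the other being Gm3776.

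Gsta2 had its lowest levels in wild-type mice fed normal diet, and the other 3 groups were higher. On Western diet, Gsta2 was at 3.90, 4.65, 3.87, 4.65 and 4.01 in knockout mice, against 4.42, 5.35, 3.27, 3.32 and 2.56 in wild-type mice. On normal diet, Gsta2 was at 3.90, 4.83, 3.42, 4.10 and 3.44 in knockout mice, against 0.01, 0.50, 0.97, 1.40 and 1.01 in wild-type mice. On normal diet the lowest knockout mouse was above the highest wild-type mouse, whereas on Western diet the genotypes overlapped. On Western diet knockout minus wild type came to 0.43 ± 0.42 (adjusted p = 0.394), and on normal diet to 3.16 ± 0.42 (adjusted p = 3.63e-05), an 8.94-fold rise. The diet difference was 0.28 ± 0.42 in the knockout (adjusted p = 0.607), and in wild-type mice Western diet raised Gsta2 by 3.01 ± 0.42 (adjusted p = 0.000222). The genotype difference on normal diet and the diet difference in wild type share the wild-type mice on normal diet. The interaction was -2.73 ± 0.60 (adjusted p = 0.0023).

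Gsta4, which conjugates the lipid peroxidation product 4-hydroxynonenal, showed a related order of groups. On Western diet, Gsta4 was at 2.06, 2.47, 2.35, 2.49 and 2.49 in knockout mice, against 3.02, 3.22, 2.93, 2.52 and 2.67 in wild-type mice. On normal diet, Gsta4 was at 1.73, 1.98, 1.42, 2.05 and 2.02 in knockout mice, against 0.04, 0.95, 0.78, 1.09 and 0.96 in wild-type mice. No wild-type mouse on normal diet reached any mouse of the other groups, and on Western diet the knockout mice lay below the wild-type mice without overlap. On normal diet Gsta4 rose in the knockout by 1.08 ± 0.19 (adjusted p = 0.000457), and on Western diet it fell by 0.50 ± 0.19 (adjusted p = 0.0284). The Western diet call was lost without knockout mouse 1 or any of wild-type mice 1, 2 and 3, with slide as a block, and with quantile normalization, normexp and the authors' deposited values (-0.26 at the smallest). The diet difference was 0.53 ± 0.19 in the knockout (adjusted p = 0.0244) and 2.11 ± 0.19 in wild type (adjusted p = 2.56e-06), the knockout call being lost without knockout mouse 2 or 5 on Western diet or mouse 3 on normal diet.

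Gsta1 had 4 values in knockout mice on Western diet, since the spot of mouse 2 was left out as an outlier. On Western diet, Gsta1 was at 5.42, 5.30, 6.05 and 5.84 in knockout mice, against 5.86, 6.68, 4.80, 4.96 and 4.38 in wild-type mice. On normal diet, Gsta1 was at 5.42, 6.03, 5.04, 6.0 and 5.15 in knockout mice, against 4.48, 4.30, 4.72, 3.08 and 4.02 in wild-type mice. The genotypes were apart on normal diet and overlapped on Western diet. The knockout was higher by 1.41 ± 0.39 on normal diet (adjusted p = 0.0157). On Western diet the difference was 0.32 ± 0.41 (adjusted p = 0.526), and the interaction was -1.09 ± 0.56 (adjusted p = 0.167). Wild-type mouse 2 was the highest of the Western diet group for Gsta1, Gsta2 and Gsta4.

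Gsta3, the mouse enzyme that detoxifies the aflatoxin epoxide, went the other way. Its brighter probe was saturated on 0 arrays of knockout mice on Western diet, 4 of knockout mice on normal diet and all 5 of each wild-type group. By the main processing its fall in the knockout on Western diet is a bound of at least 1.82-fold (adjusted p = 9.45e-05, measured mean levels 6.73 in knockout mice and 7.59 in wild-type mice). For Gsta3 that call was lost with normexp (adjusted p = 0.0644), and the smallest difference under a fitted alternative was -0.37. Its second probe was saturated on 2 of 5 arrays of knockout mice on normal diet and on none of the other 15. By that probe Gsta3 was at 6.49, 6.59, 6.19, 6.59 and 6.26 in knockout mice on Western diet, against 7.60, 7.46, 7.15, 7.34 and 7.45 in wild-type mice on it. These values did not overlap, and the difference in the fit of all probes was -0.98 ± 0.12 (adjusted p = 1.04e-06). The diet difference was -1.43 ± 0.12 in the knockout (adjusted p = 1.98e-08), against the group with those 2 saturated arrays, and -0.65 ± 0.12 in wild type (adjusted p = 0.0021).

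The 7 mu class genes lie next to each other on chromosome 3 and did not move together. On Western diet 2 of them rose in the knockout and 5 were called lower. Gstm1 and Gstm3, among these 5, were called from probes saturated on every Western diet array, so sign and size cannot be read from these probes. The 75th percentile subtracted from each level ran from 339.7 to 435.1 units in knockout mice on Western diet, against 261.1 to 330.8 in wild-type mice. With quantile normalization the Gstm3 difference turned to 0.0573. None was called on normal diet by limma, also at an unadjusted p under 0.05. Among the 5 genes not at the ceiling on Western diet, Gstm4 had the largest difference. On Western diet, Gstm4 was at 0.21, -0.34, -0.64, 0.26 and -0.10 in knockout mice, against 2.11, 3.08, 1.82, 1.61 and 1.74 in wild-type mice. On normal diet, Gstm4 was at 1.64, 2.39, 1.29, 0.93 and 0.78 in knockout mice, against 0.88, 1.27, 1.29, 1.64 and 1.18 in wild-type mice. On Western diet the knockout mice lay below the wild-type mice without overlap, and on normal diet the genotypes overlapped. The difference was -2.19 ± 0.30 on Western diet (adjusted p = 5.79e-06), a 4.57-fold fall, and 0.16 ± 0.30 on normal diet (adjusted p = 0.753). With Western diet Gstm4 fell in the knockout by 1.53 ± 0.30 (adjusted p = 0.000337), while the diet difference in wild type was 0.82 ± 0.30 (adjusted p = 0.124).

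On Western diet, Gstm7 was at -0.22, -0.54, -1.02, -0.51 and -0.58 in knockout mice, against 0.80, 0.58, 0.45, 0.75 and 0.77 in wild-type mice. On normal diet, Gstm7 was at 0.71, 1.0, 0.51, 0.81 and 0.65 in knockout mice, against 0.79, 0.81, 0.76, 1.35 and 1.13 in wild-type mice. The Western diet groups did not overlap, and the difference was -1.24 ± 0.15 (adjusted p = 1.04e-06). Gstm2 went the opposite way. On Western diet, Gstm2 was at 4.28, 4.82, 4.07, 3.78 and 4.13 in knockout mice, against 3.49, 4.21, 2.31, 2.96 and 2.50 in wild-type mice. On normal diet, Gstm2 was at 4.87, 4.45, 4.06, 3.98 and 4.12 in knockout mice, against 2.87, 3.66, 3.93, 4.26 and 3.48 in wild-type mice. Wild-type mouse 2 was at the level of the knockout mice, so the Western diet groups overlapped. The Gstm2 difference was 1.12 ± 0.32 on Western diet (adjusted p = 0.00617) and 0.66 ± 0.32 on normal diet (adjusted p = 0.169).

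Gstm5 was singled out after its values were seen, since it was the single Gst gene with a positive interaction call. On Western diet, Gstm5 was at 1.88, 2.57, 2.95, 2.06 and 2.55 in knockout mice, against 1.39, 1.75, 1.21, 1.49 and 1.13 in wild-type mice. On normal diet, Gstm5 was at 1.44, 1.26, 1.29, 1.59 and 1.51 in knockout mice, against 1.11, 1.36, 1.31, 1.76 and 1.17 in wild-type mice. The knockout mice on Western diet lay above all other mice. The genotype difference was 1.01 ± 0.18 on Western diet (adjusted p = 0.000108) and 0.08 ± 0.18 on normal diet (adjusted p = 0.802), and the diet difference in the knockout was 0.98 ± 0.18 (adjusted p = 0.000179). Gstm6 fell in the knockout on Western diet by 0.68 ± 0.21 (adjusted p = 0.0094), and its diet difference was -1.64 ± 0.21 in the knockout (adjusted p = 3.59e-06) and -0.73 ± 0.21 in wild type (adjusted p = 0.0452). That wild-type call was lost without any of mice 1, 3, 4 and 5 of either wild-type group, without knockout mouse 1, 2, 3 or 5 on Western diet and without knockout mouse 3 on normal diet. It was also lost with slide or replicate number as a block, with median scaling, quantile normalization and normexp, with no filter, and with only the groups compared.

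The brightest mu class probes had reached the scanner's ceiling. The probe standing for Gstm1 was saturated on 19 of 20 arrays and the Gstm3 probe on 12, all 10 Western diet arrays among them, so no fold is given for either gene on that diet. A second Gstm1 probe was saturated on 0 arrays and disagreed with the first. By it Gstm1 was at 5.58, 5.21, 5.15, 5.09 and 5.36 in knockout mice on Western diet, against 6.57, 7.14, 6.16, 5.90 and 5.75 in wild-type mice. The genotypes did not overlap there, and the difference was -1.03 ± 0.22 (adjusted p = 0.000545). Western diet raised this probe in wild-type mice by 1.47 ± 0.22 (adjusted p = 0.000425), where the saturated probe gave -0.22 ± 0.16 (adjusted p = 0.5).

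**Figure D3:**
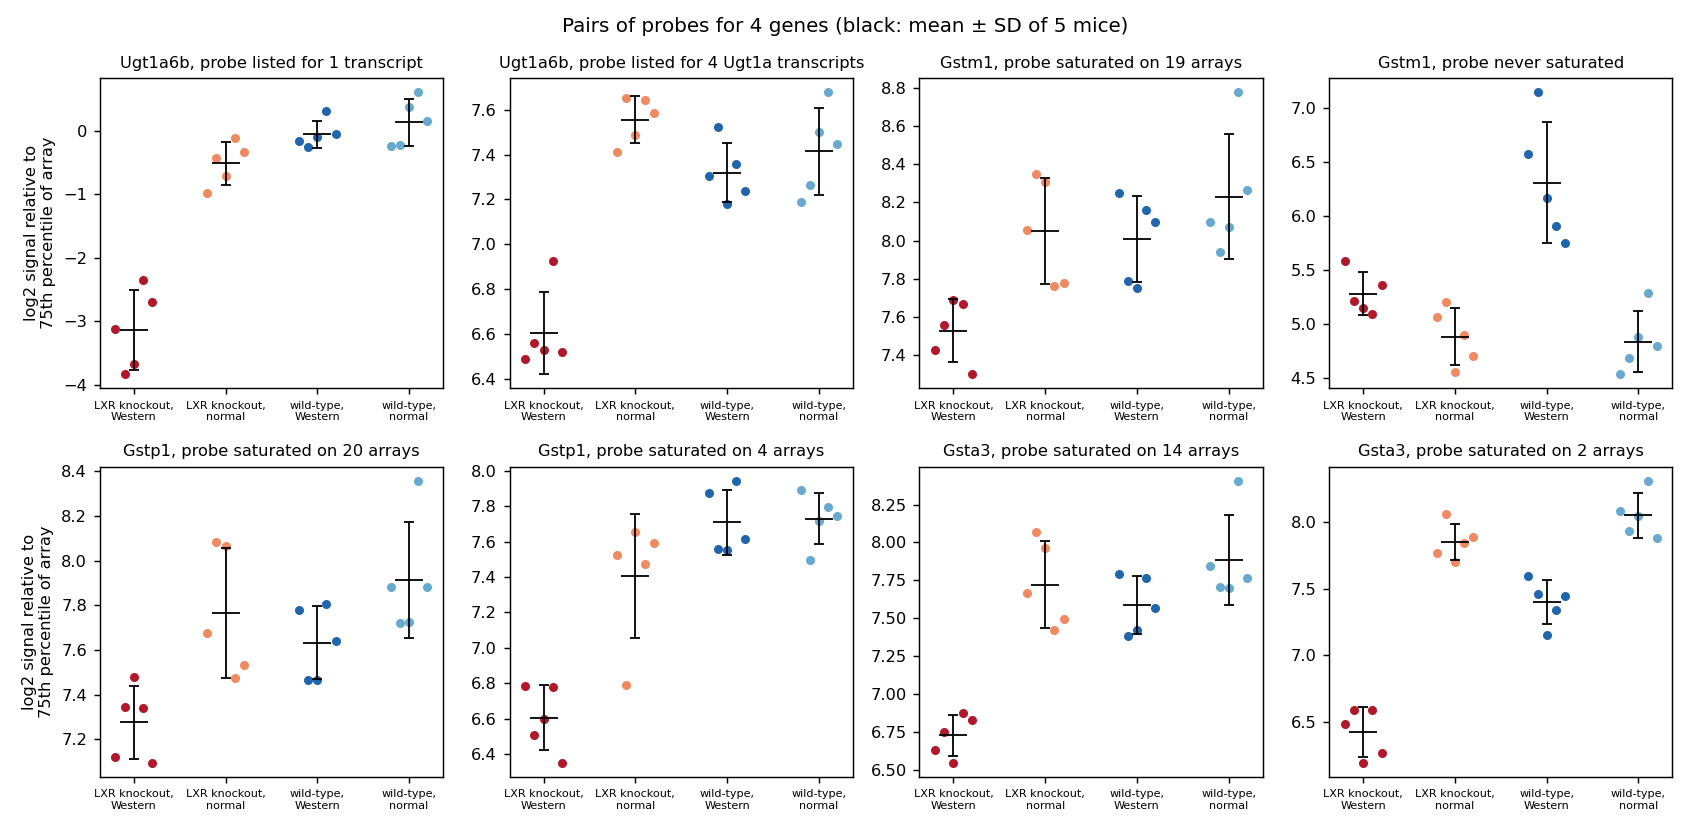
Level in each of the 20 mice (log2 signal relative to the 75th percentile of the array) by the 2 probes of Ugt1a6b, Gstm1, Gstp1 and Gsta3, with the groups in the order knockout on Western diet, knockout on normal diet, wild type on Western diet and wild type on normal diet, and bars for the mean and SD of 5 mice. The unsaturated Gstm1 probe is highest in wild-type mice on Western diet, at 6.31 on average, while the saturated one shows no such rise.

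Of the other 8 Gst genes, 5 were called lower in the knockout on Western diet by limma, among them saturated Gstp1, and none higher. On normal diet 1 rose. Over all genes 57.7% were called on Western diet, 32.7% lower, and 19.7% on normal diet, 11.3% higher. Gstt1, a theta class enzyme of small halogenated compounds, was among the 5 called lower on Western diet. On Western diet, Gstt1 was at 1.0, 0.83, 0.48, 0.94 and 1.02 in knockout mice, against 1.97, 1.92, 1.73, 1.98 and 1.92 in wild-type mice. On normal diet, Gstt1 was at 1.80, 2.40, 1.83, 2.24 and 2.25 in knockout mice, against 1.89, 1.91, 1.93, 2.75 and 1.97 in wild-type mice. The knockout mice on Western diet lay below all wild-type mice on it, and the difference was -1.05 ± 0.17 (adjusted p = 2.79e-05) there and 0.02 ± 0.17 on normal diet (adjusted p = 0.961). Its neighbour in class, Gstt2, rose on normal diet. On Western diet, Gstt2 was at 3.40, 3.71, 3.28, 3.54 and 3.67 in knockout mice, against 3.33, 3.16, 3.38, 3.12 and 3.16 in wild-type mice. On normal diet, Gstt2 was at 3.85, 4.51, 3.67, 3.38 and 3.85 in knockout mice, against 2.78, 3.13, 2.45, 3.11 and 2.73 in wild-type mice. For Gstt2 the normal diet groups were apart, by 1.01 ± 0.17 (adjusted p = 0.00039), and the Western diet difference was 0.29 ± 0.17 (adjusted p = 0.157).

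Gstk1, the kappa class enzyme of mitochondria and peroxisomes, fell on Western diet. On Western diet, Gstk1 was at 4.38, 4.43, 4.01, 4.52 and 4.19 in knockout mice, against 5.11, 4.91, 5.07, 5.76 and 5.14 in wild-type mice. On normal diet, Gstk1 was at 5.31, 5.56, 5.54, 5.51 and 5.68 in knockout mice, against 5.27, 5.40, 5.42, 5.80 and 5.43 in wild-type mice. On Western diet each knockout mouse was below each wild-type mouse. The difference was -0.89 ± 0.15 there (adjusted p = 4.86e-05), and on normal diet it was 0.05 ± 0.15 (adjusted p = 0.832). Gstz1, the maleylacetoacetate isomerase of tyrosine breakdown, fell by 0.66 ± 0.16 (adjusted p = 0.0013) with overlapping groups. Gsto1, an omega class enzyme that reduces dehydroascorbate, fell by 0.49 ± 0.13 (adjusted p = 0.00329), a call lost with quantile normalization, normexp, outlier spots kept and the authors' deposited values (-0.20 at the smallest). It rose with diet in wild-type mice by 0.57 ± 0.14 (adjusted p = 0.0182), a call lost without wild-type mouse 3 on normal diet and with median scaling, normexp and the authors' deposited values.

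Gstp1, the pi class enzyme, was saturated on all 20 arrays by its brighter probe, which also lists Gstp2. No fold is given from that probe, and the sign of its differences cannot be read. Its Western diet difference was called lower and turned to 0.0823 with quantile normalization. Its second probe was saturated on 3 of 5 arrays of wild-type mice on Western diet and 1 of 5 of knockout mice on normal diet, so the differences from it are of measured values that include arrays at the ceiling. It was at 6.78, 6.51, 6.60, 6.78 and 6.35 in knockout mice on Western diet, against 7.87, 7.56, 7.55, 7.94 and 7.61 in wild-type mice. The difference was -1.10 ± 0.15 on Western diet (adjusted p = 5.29e-06) and -0.32 ± 0.15 on normal diet (adjusted p = 0.144). Gsto2 differed by -0.65 ± 0.34 on Western diet (adjusted p = 0.113), and was called there with slide as a block (-0.54, adjusted p = 0.0354) and with median scaling. Gstt3 differed by 0.58 ± 0.27 (adjusted p = 0.0688), and was called with quantile normalization (0.80, adjusted p = 0.00979), the authors' deposited values, only the groups compared, and without knockout mouse 1 or 2 on normal diet. Neither was called on normal diet.

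Sult1e1, the estrogen sulfotransferase, gave the largest rise among the 39 genes and the widest spread between mice. On Western diet, Sult1e1 was at 2.58, 2.97, 1.89, -0.20 and 2.76 in knockout mice, against -2.26, -1.93, -1.84, -1.16 and -0.45 in wild-type mice. On normal diet, Sult1e1 was at 4.14, 2.45, 3.57, 3.27 and 2.97 in knockout mice, against -0.17, 0.75, 1.57, 3.80 and -0.12 in wild-type mice. Knockout mouse 4 was the lowest of its group on Western diet, and wild-type mouse 4 the highest of its group on normal diet. On Western diet the genotypes still did not overlap, and on normal diet they did through that wild-type mouse. The genotype difference was 3.53 ± 0.68 on Western diet (adjusted p = 0.000239), an 11.5-fold rise, and 2.11 ± 0.68 on normal diet (adjusted p = 0.0362). The normal diet call was lost without any of knockout mice 1, 3 and 5 or wild-type mice 1, 2 and 5, with slide or replicate number as a block, with median scaling and normexp, with no filter, and with only the groups compared. In wild-type mice Sult1e1 fell with Western diet by 2.69 ± 0.68 (adjusted p = 0.024), a call lost without wild-type mouse 1 or 2 on Western diet or 3 or 4 on normal diet, with replicate number as a block, with median scaling and normexp, and with only the groups compared.

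Sult1b1, which sulfates thyroid hormones, was higher in the knockout on normal diet and lower on Western diet. On Western diet, Sult1b1 was at 0.83, 0.63, 0.03, 0.89 and 0.24 in knockout mice, against 1.91, 1.73, 1.91, 2.29 and 2.03 in wild-type mice. On normal diet, Sult1b1 was at 3.23, 3.85, 3.62, 3.51 and 3.93 in knockout mice, against 2.07, 2.82, 2.42, 3.46 and 2.25 in wild-type mice. The genotypes did not overlap on Western diet, while on normal diet wild-type mouse 4 lay among the knockout mice. The difference was -1.45 ± 0.23 on Western diet (adjusted p = 3.11e-05) and 1.03 ± 0.23 on normal diet (adjusted p = 0.00392). With Western diet it fell in the knockout by 3.11 ± 0.23 (adjusted p = 7.69e-09), an 8.62-fold fall, and the difference in wild type was -0.63 ± 0.23 (adjusted p = 0.125). Its second probe gave 0.80 ± 0.30 on normal diet in the fit of all probes and was not called there (adjusted p = 0.0711).

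Sult1c1 fell in the knockout on Western diet. On Western diet, Sult1c1 was at -2.24, -1.96, -1.97, -0.67 and -2.10 in knockout mice, against -0.80, 0.01, 0.27, -0.92 and 0.23 in wild-type mice. On normal diet, Sult1c1 was at -1.31, -0.17, -0.28, 1.29 and -0.26 in knockout mice, against -0.08, 0.05, 0.62, -0.23 and 0.41 in wild-type mice. Knockout mouse 4 on Western diet lay among the wild-type mice and made the groups overlap. The difference was -1.55 ± 0.39 (adjusted p = 0.00251) on Western diet and -0.31 ± 0.39 on normal diet (adjusted p = 0.625). Sult1c2 fell by 0.64 ± 0.21 (adjusted p = 0.0137) on Western diet and rose with that diet in wild-type mice by 1.22 ± 0.21 (adjusted p = 0.00142). Sult1d1, an enzyme that sulfates catecholamines in mice, was called in none of the 5 comparisons, and its differences lay between -0.40 and 0.20.

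Sult1a1, the phenol sulfotransferase, is described as the other gene with a positive interaction call, and was singled out after its values were seen. On Western diet, Sult1a1 was at 6.08, 6.04, 5.80, 5.72 and 6.17 in knockout mice, against 4.66, 3.97, 4.52, 4.57 and 4.40 in wild-type mice. On normal diet, Sult1a1 was at 5.75, 6.07, 6.01, 6.17 and 6.28 in knockout mice, against 5.51, 5.80, 5.70, 6.16 and 5.55 in wild-type mice. Wild-type mice on Western diet lay below all other mice. The genotype difference was 1.54 ± 0.15 on Western diet (adjusted p = 1.08e-07) and 0.31 ± 0.15 on normal diet (adjusted p = 0.162). The diet difference in the knockout was -0.09 ± 0.15 (adjusted p = 0.638), which turned to 0.42 (adjusted p = 0.0122) with quantile normalization. In wild-type mice Sult1a1 fell with Western diet by 1.32 ± 0.15 (adjusted p = 2.61e-05).

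**Figure D4:**
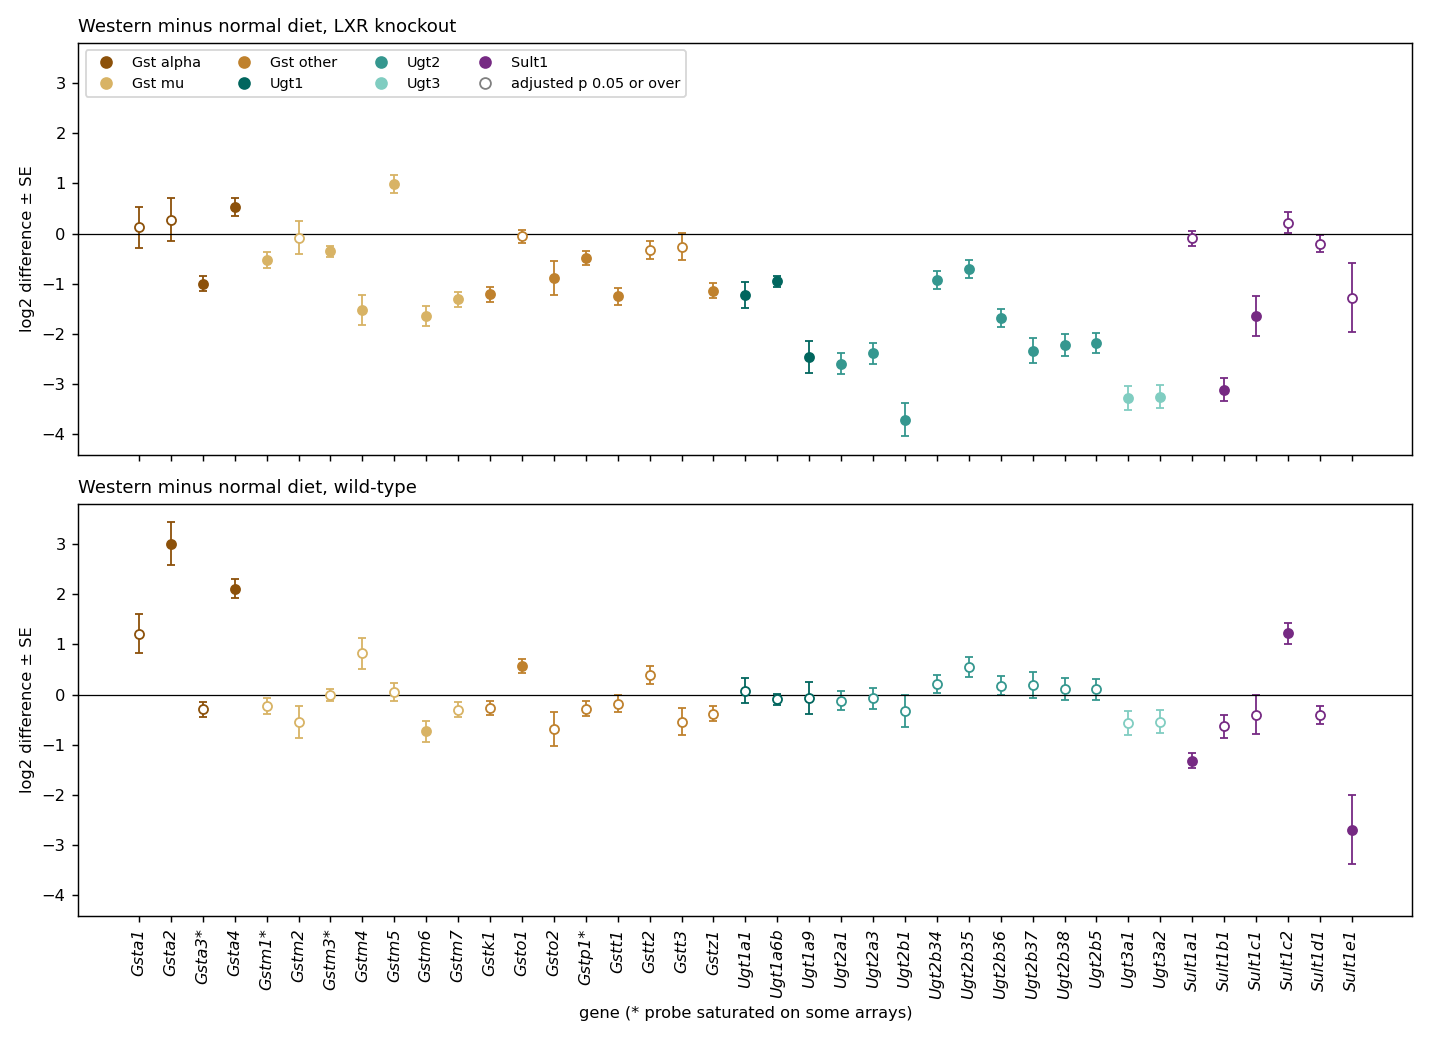
Diet difference in log2 units (Western diet minus normal diet) of each of the 39 genes in knockout and in wild-type mice, with standard errors over 5 mice a group, filled points for an adjusted p under 0.05 and an asterisk for genes with saturated arrays. In the knockout 27 filled points lie below 0 and 2 above it, and in wild type 3 lie below and 4 above.

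The diet plot sets the 7 calls of wild-type mice, Gsta2, Gsta4, Gsto1 and Sult1c2 above 0 and Gstm6, Sult1a1 and Sult1e1 below it, beside the 29 of the knockout. Gsta4 and Gstm6 were called in the same direction in both genotypes. Without the 4 genes whose probe was saturated on some arrays, 35 were left. Between genotypes 4 rose and 25 fell on Western diet, and 6 rose and 1 fell on normal diet. With diet 2 rose and 23 fell in the knockout, and 4 rose and 3 fell in wild type. The shares called were 82.9%, 20%, 71.4% and 20%, against 57.7%, 19.7%, 50.4% and 5.97% of all genes.

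**Figure D5:**
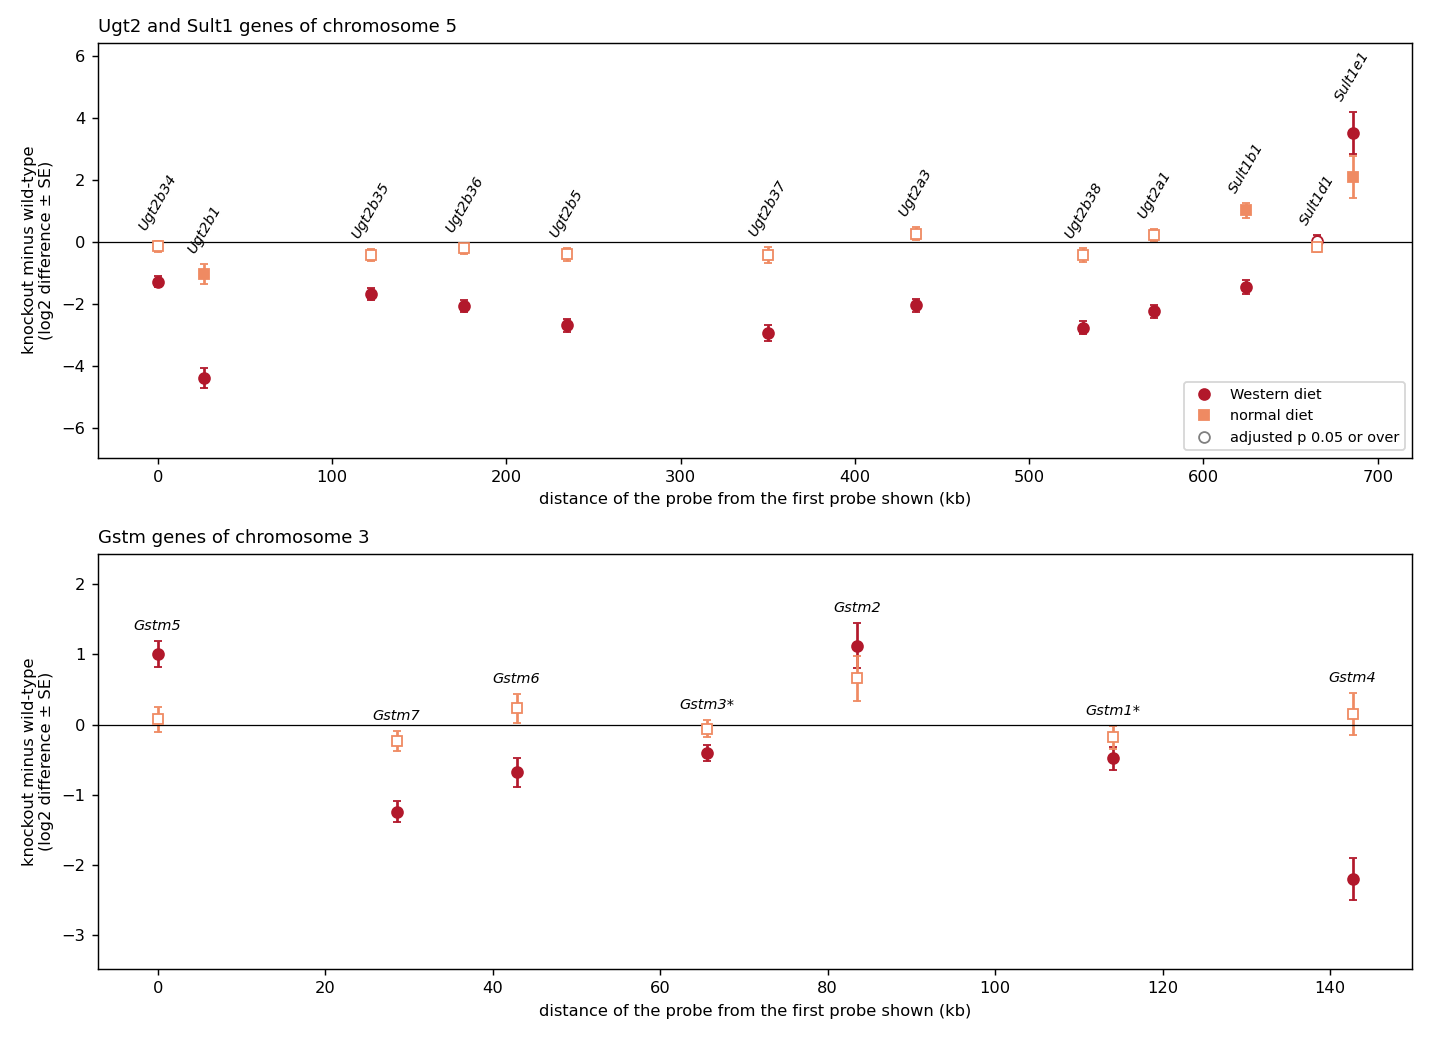
Genotype difference in log2 units (knockout minus wild type) on each diet of the Ugt2 and Sult1 genes of the chromosome 5 cluster and the Gstm genes of the chromosome 3 cluster, against the distance in kb of each probe from the first probe of its cluster. Every Ugt2 gene lies below 0 on Western diet, and in the Gstm cluster genes above 0 lie next to genes below it.

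By the mm8 probe positions of the array files, the 9 Ugt2 genes span 571.6 kb of chromosome 5, from Ugt2b34 to Ugt2a1, and Sult1b1, Sult1d1 and Sult1e1 follow within 685.6 kb of the first probe. All 9 Ugt2 genes and Sult1b1 were lower in the knockout on Western diet, Sult1d1 differed by 0.05, and Sult1e1 at the far end was higher by 3.53. The 7 Gstm genes span 143 kb of chromosome 3. Gstm5 and Gstm2 rose on Western diet, Gstm4, Gstm6 and Gstm7 fell, and Gstm1 and Gstm3 were called lower from saturated probes. Neighbours such as Gstm5 at 1.01 and Gstm7 at -1.24 changed in opposite directions.

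Promoter windows of 250 bases were at hand for 36 of the 40 genes, all but Gsta4, Gstt2, Ugt1a6b and Ugt3a2, and were searched on both strands for the motifs below, beside the windows of 27025 genes. The core of the antioxidant response element, TGACNNNGC, through which NRF2 acts, was in 3 of 36 windows (8.33%; Gsta3, Gstm5 and Gstm7), against 11.5% of all windows. The AP-1 motif TGANTCA was in 8 windows (22.2%), 4 of them among the 12 Ugt windows, against 7.82% of all. The STAT motif TTCNNNGAA was in 2 (5.56%; Gsta1 and Gstm6), against 8.13%. The consensus direct repeat with a 4-base spacer, the form of site that LXR binds, was in none of the 36 and in 0.0148% of all windows. These are matches of letters in a short window.

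Genes that supply or complete conjugation were counted by lists, to be read against the 57.7% of all genes called for genotype on Western diet and 19.7% on normal diet. Of the enzymes and carriers that make UDP-glucuronic acid, PAPS and glutathione, 1 rose and 6 fell of 14 tested in the knockout on Western diet (median -0.53), and 3 rose and 1 fell of 14 on normal diet (median 0.31). Papss1, which makes the sulfate donor, rose by 1.34 ± 0.14 on Western diet (adjusted p = 2.61e-07) and by 1.54 ± 0.14 on normal diet (adjusted p = 6.54e-07). Gclc, the catalytic subunit of the rate-limiting enzyme of glutathione synthesis, fell by 1.37 ± 0.22 on Western diet (adjusted p = 2.84e-05), and Cbs, which starts the route from homocysteine to cysteine, fell by 2.24 ± 0.17 (adjusted p = 4.73e-09).

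Among other conjugating enzymes, 3 rose and 13 fell of 17 tested on Western diet (median -1.38), and 3 rose and 2 fell of 17 on normal diet (median -0.12). The 3 that rose on Western diet were the microsomal glutathione transferases Mgst2 at 3.55 ± 0.38 (adjusted p = 3.43e-07) and Mgst3 at 1.04 ± 0.17 (adjusted p = 3.81e-05), and the quinone reductase Nqo1, a known NRF2 target, at 1.74 ± 0.27 (adjusted p = 2.35e-05). Inmt, an N-methyltransferase, fell most, by 6.53 ± 0.53 (adjusted p = 1.05e-08). Baat, which joins bile acids to glycine or taurine, fell by 1.60 ± 0.15 (adjusted p = 8.58e-08). Nqo1 also rose on normal diet, by 1.64 ± 0.27 (adjusted p = 0.000279).

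Deconjugating enzymes and exporters were counted the same way. On Western diet 3 rose and 0 fell of 6 tested deconjugating enzymes (median 0.74), a share near the 57.7% of all genes, and on normal diet limma called none (median 0.22). Among those that rose was Gusb, the lysosomal beta-glucuronidase, at 1.47 ± 0.13 (adjusted p = 4.23e-08). Of the conjugate exporters 5 rose and 2 fell of 7 in the knockout on Western diet (median 0.73), 4 rose and 1 fell of 7 on normal diet (median 0.60), and 3 rose and 2 fell of 7 with diet in the knockout (median -0.02). Abcc4, an exporter of the blood-facing membrane, rose by 3.27 ± 0.17 on Western diet (adjusted p = 5.81e-11) and by 1.72 ± 0.17 on normal diet (adjusted p = 1.79e-06), whereas Abcg2 of the bile-facing membrane fell by 1.92 ± 0.19 on Western diet (adjusted p = 1.03e-07).

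Of 14 transcription factors and partners known to act on these genes, 5 rose and 6 fell in the knockout on Western diet (median -0.15), 3 rose and 1 fell on normal diet (median 0.18), and 1 rose and 8 fell with diet in the knockout (median -0.69, against 50.4% of all genes called). Nr1i3, which encodes CAR, rose by 1.10 ± 0.22 (adjusted p = 0.000309) on Western diet and by 1.15 ± 0.22 (adjusted p = 0.00108) on normal diet. Nfe2l2, which encodes NRF2, rose by 0.58 ± 0.17 (adjusted p = 0.0062) on Western diet, and Ahr by 1.31 ± 0.19 (adjusted p = 1.38e-05). Hnf4a, a hepatocyte factor, fell by 0.95 ± 0.17 (adjusted p = 0.000102), as did Ppara by 0.96 ± 0.26 (adjusted p = 0.00344), Nr1h4, which encodes the bile acid receptor FXR, by 0.74 ± 0.18, Onecut1 by 1.02 ± 0.37 and Stat5b by 0.51 ± 0.12. The others that rose were Cux2, which is female-biased in mouse liver, by 2.14 ± 0.37 (adjusted p = 7.86e-05) and Arnt, the partner of AHR, by 0.85 ± 0.21. These are transcript levels, and whether they bear on the conjugation genes was not tested.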

How the data were processed

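Liver RNA of 20 mice was labelled with Cy3 and hybridised to 1-colour Agilent mouse arrays, per the labels' protocols. Per the file headers, the deposited scanner files hold processed signal intensity from Feature Extraction 9.5.3.1, with probe positions on mm8. The authors' deposited value table holds normalized log2 values of 24493 probes (column medians 7.734 to 7.783). Its correlation with the scanner log2 values was at least 0.974 per array, and its centring is not stated. limma is named in the submitters' processing notes.

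Control spots and outlier spots (105 to 270 per array) were left out. For this reason Gsta1 and Ugt2a1 lacked a knockout mouse on Western diet. Gsto1, Gstm3 and Ugt2b35 lacked a wild-type mouse on normal diet. The log2 of the processed signal minus the array's 75th percentile was averaged per probe. A gene was represented by its probe of highest mean level across the 20 arrays. It was kept where some group had that probe well above background on 4 or 5 of its arrays. limma 3.58.1 in R 4.3.3 fitted the 4 group means with 16 residual degrees of freedom, lmFit and eBayes. Tests were two-sided, and p-values were adjusted by Benjamini-Hochberg over all genes, separately in the 5 comparisons, and called under 0.05. The procedure was tested on simulated data. Figures were drawn with matplotlib 3.10.9.

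Groups follow the genotype and diet in the sample titles. p-values measure the spread between mice. Of the 50 probes, 48 were named through their accession and 2 by the printed symbol, 9 genes had more than 1 probe, and 10 probes list several RefSeq accessions. The members and the gene lists were chosen with earlier results of these data known. Every member gene could be named, with values of every array for up to 3 per family, those called with the largest differences between genotypes on either diet or in the interaction. Genes outside the families were named from the counted lists. Probes saturated on every array of a group give bounds only, computed from the means of the normalized log2 values. Alternatives were the scaling (median, quantile), normexp with offset 50, the authors' deposited values, the filter, the choice of probe, outlier spots, slide and replicate blocks, the groups fitted, and leaving out each array. Promoter windows came from RefSeq (GRCm38.p6), a build other than that of the probes, and were not joined by position. No genome sequence was used here. The values of 1 gene of the counted lists, and of a motif, are not reported here.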

Additional observations from a re-analysis of the deposited data

Results flagged for a closer look

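For 29 of the 39 genes the diet difference in the knockout departed from that in wild type by limma's interaction test (adjusted p under 0.05, 5 mice a group), against 27.6% of all genes tested. The values below are log2 diet differences in the knockout minus those in wild type. Of the 14 Ugt genes, all were negative, with -3.38 for Ugt2b1, -2.72 for Ugt3a1, -2.71 for Ugt3a2, -2.52 for Ugt2b37, -2.47 for Ugt2a1, -2.39 for Ugt1a9, -2.34 for Ugt2b38, -2.31 for Ugt2a3, -2.28 for Ugt2b5, -1.86 for Ugt2b36, -1.30 for Ugt1a1, -1.25 for Ugt2b35, -1.14 for Ugt2b34 and -0.86 for Ugt1a6b. Each of these 14 fell with Western diet in the knockout and was not called for diet in wild type. Members outside the Ugt families, Sult1b1 and Gstm4 among them, did the same. The Ugt1a6b value comes from the probe that lists 4 Ugt1a transcripts. Its second probe, which lists a single RefSeq transcript, gave -2.43 ± 0.36 in the fit of all probes.

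Among the Gst genes the interaction was -2.73 for Gsta2, -2.35 for Gstm4, -1.58 for Gsta4, -1.07 for Gstt1, -1.01 for Gstm7, -0.94 for Gstk1, -0.91 for Gstm6, -0.76 for Gstz1, -0.72 for Gstt2, -0.70 for Gsta3, -0.62 for Gsto1 and 0.93 for Gstm5. The Gsta3 value comes from a probe saturated on all 10 arrays of wild-type mice and 4 of 5 of knockout mice on normal diet, so its size cannot be read. For Gsta2 and Gsta4 the diet difference was larger in wild-type mice, and for Gstm5 the knockout alone was called. Among the Sult1 genes it was -2.48 for Sult1b1, -1.0 for Sult1c2 and 1.23 for Sult1a1. For Sult1a1 the wild-type mice fell with diet.

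In 10 of 151 sets of 5 mice, 1 mouse stood apart from the other 4 by Dixon's ratio, which chance gives in about 1 of 20 sets. Wild-type mouse 4 on normal diet was high for 3 genes, Gstt1 (level 2.75), Gstp1 (8.36, saturated probe) and Gsta3 (8.40, saturated probe). Knockout mouse 4 on Western diet was high for Ugt1a6b (6.93) and Sult1c1 (-0.67). The others were knockout mouse 2 on Western diet, high for Gstt3 (4.04), knockout mouse 3 on normal diet, low for Ugt2b34 (2.41), knockout mouse 1 on normal diet, low for Gstz1 (5.23), wild-type mouse 3 on Western diet, low for Gstt1 (1.73), and wild-type mouse 4 on Western diet, high for Gstk1 (5.76).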

How the results depend on the processing

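Of 105 called differences of single genes, 64 were called under every fitted alternative and 41 were lost under at least 1, most often normexp background correction. All 14 Ugt genes stayed negative on Western diet, in the knockout diet difference and in the interaction under every fitted alternative, with 13 to 14, 12 to 14 and 10 to 14 of them called. Of the 19 Gst genes, the lower calls ran from 3 to 12 for genotype on Western diet (median -0.65 to -0.20). They ran from 6 to 11 for diet in the knockout and 3 to 13 for the interaction, the lowest each with normexp. Over all genes normexp also called fewer in these comparisons, 4302 against 10128, 3571 against 8845 and 1014 against 4839. Without 1 array at a time, the counts of the 39 genes called ran from 31 to 34 for genotype on Western diet, 5 to 7 on normal diet, 27 to 29 for diet in the knockout, 4 to 7 for diet in wild type (4 without wild-type mouse 3 on normal diet) and 27 to 30 for the interaction. With normexp 3 genes were called for genotype on normal diet, 4 for diet in wild type and 16 for the interaction, and median scaling gave 4 for diet in wild type.

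Sign changes were few. With quantile normalization the genotype difference on Western diet became 0.0823 for Gstp1 and 0.0573 for Gstm3, and the diet difference in the knockout became 0.42 for Sult1a1, 0.0693 for Gstp1, 0.18 for Gstm3 and 0.0360 for Gstm1. With the authors' deposited normalized values these 4 diet differences were 0.44, 0.0006, 0.18 and 0.0006. The unsaturated Gstm1 probe gave 0.40 for diet in the knockout and 1.47 in wild type, and the mean of both probes gave 0.63 in wild type. Within single slides the sign turned for Gstm2 and Gstp1 genotype on Western diet (-0.14 and 0.0122, slide 3), Sult1e1 genotype on normal diet (-0.83, slide 10), Gstm6 diet in wild type (0.28, slide 3) and the Gstm6 interaction (0.35, slide 10). Within slides the direction held in every slide for 31 of 33, 6 of 7, 29 of 29, 6 of 7 and 28 of 29 calls of the 5 comparisons. The causes were not tested.

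Over all genes, normexp called 4302 genes against 10128 for genotype on Western diet, 509 against 3460 on normal diet, 3571 against 8845 for diet in the knockout, 146 against 1047 in wild type and 1014 against 4839 for the interaction. Median scaling called 2254 for genotype on normal diet, 524 for diet in wild type and 3065 for the interaction, and moved the median of all genes in the diet comparison of wild type to 0.08. Normexp moved the all-gene median to -0.23 for diet in the knockout and -0.20 for the interaction, and quantile normalization moved the knockout one to -0.01. The share of calls that were higher became 62.7% with normexp for the interaction (46.7% otherwise), and 66.6% with median scaling and 43.8% with normexp for diet in wild type (54.5% otherwise).

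Same-numbered mice were not treated as pairs. In no pair of groups did all 5 correlations of deviations pass 0.1, with 3 of 5 passing between knockout groups and 4 of 5 between wild-type groups. The same-numbered mice of the knockout groups shared slides, as did mice 2 to 5 of the wild-type groups. Number and slide cannot be told apart there, so these values cannot decide whether mice were paired. With replicate number as a block the counts were 32, 6, 29, 5 and 29, and with slide as a block 32, 6, 29, 6 and 30. The probe with the fewest saturated arrays, an alternative chosen after seeing the data, gave 33, 7, 28, 9 and 31. Calls that rested on single arrays, beside those given with the genes, were Gstp1 genotype on Western diet, Gsto2 diet in the knockout, and the Gstt2 and Gstm6 interactions. Saturation limits the size of differences in Gsta3, Gstm1, Gstm3 and Gstp1, and also their sign where both groups were saturated. The 5 mice a group limit the precision of all differences.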

Other observations

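The array holds 3 Sult2a genes under older names, which RefSeq pairs with Sult2a8, Sult2a2 and Sult2a7. They fall outside the naming rule and were picked after their values were seen. Sult2a8, which sulfates bile acids in mice, was at 1.90, 0.71, 0.42, 1.51 and -0.38 in knockout mice on Western diet, against 5.46, 5.34, 5.85, 5.94 and 6.03 in wild-type mice. On normal diet it was at 6.12, 7.0, 6.78, 6.64 and 6.71 in knockout mice, against 6.66, 7.04, 6.77, 7.09 and 6.88 in wild-type mice. Knockout mice on Western diet lay far below all others. The limma differences were -4.89 ± 0.31 (adjusted p = 5.68e-10) for genotype on Western diet, -0.24 ± 0.31 (adjusted p = 0.632) on normal diet, -5.82 ± 0.31 (adjusted p = 2.15e-10) for diet in the knockout and -1.16 ± 0.31 (adjusted p = 0.031) for diet in wild type.

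Sult2a2 was well above background on all 10 arrays of knockout mice and on 0 of 10 arrays of wild-type mice. Its levels were -0.39, 0.54, -0.66, -2.57 and -0.53 in knockout mice on Western diet and -3.94, -2.55, -3.70, -3.79 and -3.89 in knockout mice on normal diet, and Western diet raised it in the knockout by 2.85 ± 0.47 (adjusted p = 6.80e-05). Sult2a7 was at 2.65, 4.41, 2.99, 3.61 and 3.72 in knockout mice on normal diet, against -0.46, 2.33, 0.36, 1.03 and 0.18 in wild-type mice on it, a difference of 2.79 ± 0.74 (adjusted p = 0.0121). In knockout mice on Western diet it was above background on 2 of 5 arrays. The Sult2a genes did not move in the same direction.

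Single mice were high across families. Wild-type mouse 4 on normal diet was the highest of its group for 15 of 19 Gst genes, 9 of 14 Ugt genes and 4 of 6 Sult1 genes. Knockout mouse 2 on normal diet was the highest of its group for 12 of 19 Gst genes, and knockout mouse 3 on Western diet was the lowest for 7 of 14 Ugt genes. How often these mice were highest or lowest over all genes was not counted, so a shift of the whole array cannot be told apart.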
